A study of Mus musculus with 12 samples.

Results

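The 10 apolipoprotein genes Apoa1, Apoa2, Apoa4, Apoa5, Apob, Apoc1, Apoc2, Apoc3, Apoc4 and Apoe were examined in mouse liver RNA, each found by its symbol among 27912 genes, and the 10 were among 17729 genes with enough reads to test. The livers of CCR1-KO mice (replicates 65, 66 and 67) were set against livers of WT mice (replicates 62, 63 and 64). CCR1-KO mice lack the chemokine receptor CCR1. The mice of both groups were male C57BL/6 animals, 8 weeks old when feeding began, and both groups ate the CL diet (rich in fat and cholesterol, with cholate) for 12 weeks, so no group here was on chow. The labels describe 12 samples, and the other 6 (WT replicates 76, 77 and 80 and CCR1-LKO replicates 83, 85 and 87) were not analysed here. The type of knockout allele, the littermate relation and the substrain of the groups are not given in the labels, so genotype and genetic background cannot be told apart. The labels number the samples but do not say that each number is a separate mouse. The p-values therefore measure the spread between these samples, which may be technical.

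Apolipoproteins are the protein parts of lipoproteins, the particles that carry cholesterol and triglyceride in blood, and the liver makes most of them. Apob is the scaffold of very-low-density lipoprotein (VLDL), Apoe binds the receptors that clear particles, and the small C-type proteins set how fast lipoprotein lipase strips triglyceride from them. The A-type proteins Apoa1 and Apoa2 build high-density lipoprotein (HDL), while Apoa4 is mainly an intestinal protein that mouse liver also makes. The genes lie in clusters, Apoa1, Apoc3, Apoa4 and Apoa5 within 43340 bases of chromosome 9 and Apoc2, Apoc4, Apoc1 and Apoe within 27610 bases of chromosome 7, with Apoa2 alone on chromosome 1 and Apob alone on chromosome 12.

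Between 74699391 and 79154085 reads were assigned to genes per library. Ccr1 reads numbered 11, 4 and 14 in CCR1-KO, against 100, 23 and 123 in WT (replicates in ascending order), so each CCR1-KO library was below each WT library, though WT replicate 63 lay close to them. The edgeR quasi-likelihood test gave a log2 fold change of -2.72 ± 0.76 (SE) with adjusted p = 0.075, above the threshold. Levels below are CPM, the reads of a gene per 1e+06 scaled reads of its library, given per library or as mean ± SD (n = 3 each), and a log2 fold change sets CCR1-KO over WT. Adjusted p-values come from the same edgeR test with Benjamini-Hochberg adjustment over 17729 genes and a threshold of 0.05. Hepatocyte markers were the most abundant of the marker lists in both groups (summed 90427 to 112217 CPM in CCR1-KO and 95294 to 104897 CPM in WT), and Alb was the highest of them.

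Apoa4 and Apoc2 were lower in CCR1-KO livers, and the other 8 apolipoprotein genes did not pass the threshold. Apoa4 fell to 13.9% and Apoc2 to 36.4% of the WT mean. The 2 lower genes compare with 3.61% of all tested genes that were lower, and no member was higher, against 2.83% of all tested genes (6.44% passed in either direction). Without adjustment 1 member, Apoc1, was higher at p under 0.05 in edgeR. DESeq2 called 1 member higher, Apoc1 again, and limma called 0 higher. Both decreases passed under each of the 16 alternative settings run for each gene, including the 6 that left out 1 library. Apoa4 passed only narrowly where a WT library was left out. The groups did not overlap for 4 members, 2 lower and 2 higher (Apoc1 and Apoc4). Groups that do not overlap were common, at 32.6% of all tested genes (17.4% lower and 15.2% higher), so these 4 of 10 are close to the background. The median log2 fold change was 0.11 over the 10 members and 0.0017 over all tested genes.

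**Figure D1:**
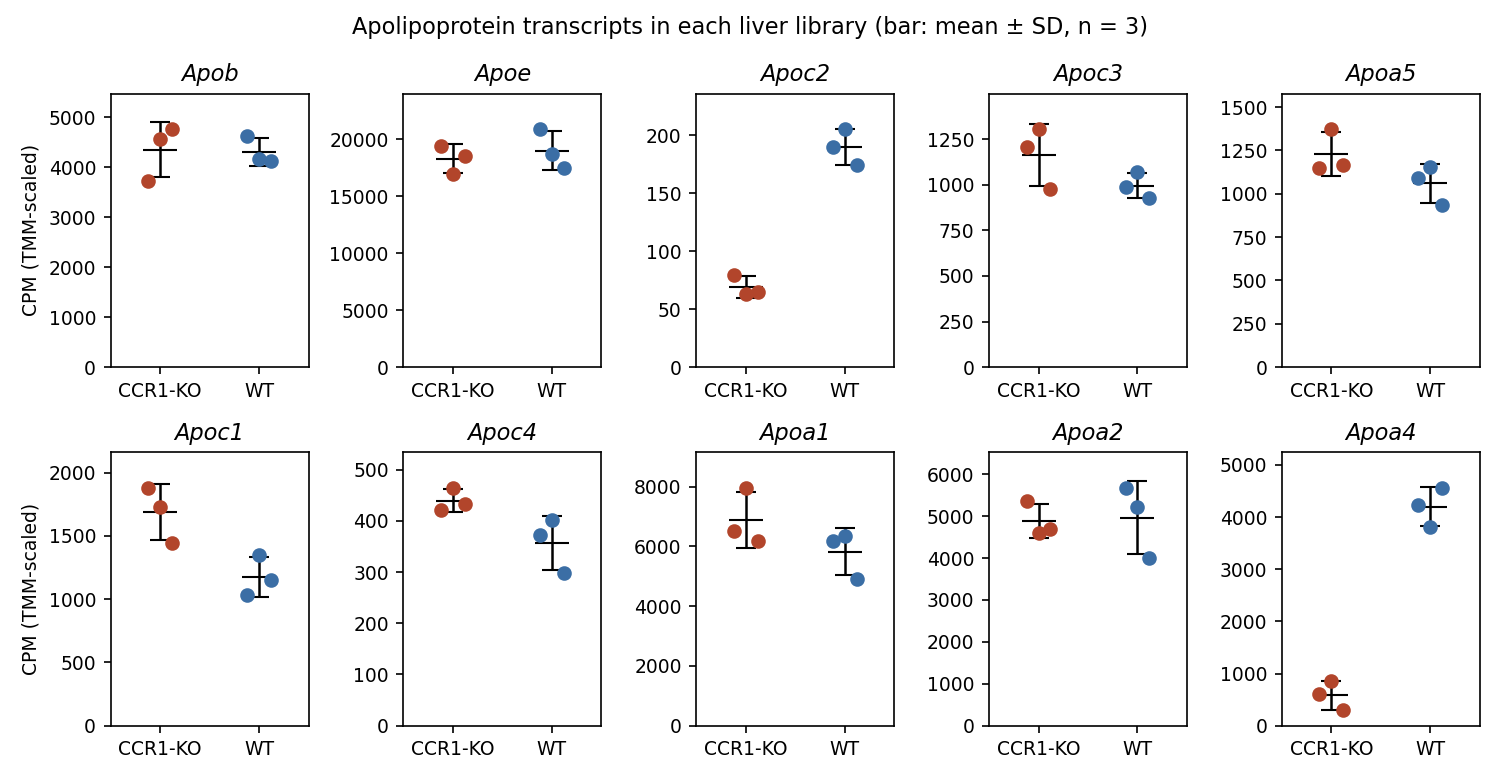
Scaled read counts (CPM, vertical axis from 0) of each gene in the 3 CCR1-KO and the 3 WT libraries, with points for libraries and bars for the mean ± SD. Apoa4 and Apoc2 sit far below WT in each CCR1-KO library, while the groups of Apob, Apoe, Apoa1, Apoa2, Apoa5 and Apoc3 overlap.

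Apoa4 encodes a protein of chylomicrons and HDL (ENSMUSG00000032080, chromosome 9, 46240696 to 46243459, plus strand, GRCm38, 1 annotated transcript). It had 602, 857 and 294 CPM in CCR1-KO replicates 65, 66 and 67, and 4224, 3807 and 4564 CPM in WT replicates 62, 63 and 64. The highest CCR1-KO library was far below the lowest WT library, and the CCR1-KO libraries were themselves widely spread, with replicate 67 lowest. The means were 584 ± 282 CPM in CCR1-KO and 4198 ± 379 CPM in WT. The log2 fold change was -2.84 ± 0.37 (SE, 95% interval -3.69 to -2.00), adjusted p = 0.0098. Leaving out 1 library gave log2 fold changes between -3.23 and -2.53. Without WT replicate 62, 63 or 64 the adjusted p in edgeR was 0.046, 0.049 and 0.047, just under the threshold. A pair of models on the other strand overlap the gene, Gm10680 and Gm47528. Gm10680 had 0, 20 and 0 reads in CCR1-KO and 32, 35 and 2522 reads in WT, the last in replicate 64, and Gm47528 had 165 to 512 reads in CCR1-KO and 248 to 448 in WT. Beside 17579 to 55900 Apoa4 reads in CCR1-KO and 337073 to 401444 in WT these are few, and with their reads added the log2 fold change was -2.84 (adjusted p = 0.0098).

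Because the intestine is the main source of Apoa4, intestinal markers were read in the same libraries. Vil1, Lct, Muc2 and Rbp2 each stayed at or below 0.25 CPM in the 6 libraries, with Muc2 and Rbp2 at 0 in CCR1-KO. Fabp2, which liver also expresses, had 81.9 to 138 CPM in CCR1-KO and 143 to 161 CPM in WT (adjusted p = 0.16). Of the 10 listed intestinal markers, Alpi, Cdx1, Cdx2 and Sis were not found by symbol. The 6 matched intestinal markers summed to 161 to 231 CPM in CCR1-KO and 262 to 276 CPM in WT. These sums were nearly all Fabp2 and Dpp4, so they mainly follow these genes. The groups of Dpp4 overlapped (adjusted p = 0.24 in edgeR), while those of Fabp2 did not. Of the matched markers, 0 of the 3 tested passed with edgeR, DESeq2 or limma (1 lower at unadjusted p under 0.05 in edgeR).

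Apoc2, the activator that lipoprotein lipase needs, was the other member to fall (ENSMUSG00000002992, chromosome 7, 19671579 to 19677941, minus strand). It had 79.8, 63.01 and 64.6 CPM in CCR1-KO replicates 65, 66 and 67, against 189.8, 205 and 174 CPM in WT replicates 62, 63 and 64. The libraries within each group lay close together and the groups were far apart. The log2 fold change was -1.46 ± 0.14 (95% interval -1.78 to -1.13), adjusted p = 0.0045, and ranged from -1.57 to -1.39 with 1 library left out.

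The reads of Apoc2 are shared with another model, Gm44805 (ENSMUSG00000109350, chromosome 7, 19671584 to 19681423, minus strand), which joins exon sequence of Apoc4 to that of Apoc2. Of its 765 exon bases, 84.4% lie in exons of Apoc2, 15.6% in exons of Apoc4 and 0 are its own. The authors' table gave it 7799, 7116 and 6638 reads in CCR1-KO and 16596, 10615 and 18651 reads in WT. Apoc2 itself had 6379, 4111 and 3860 reads in CCR1-KO and 15624, 18151 and 15316 in WT, fewer than Gm44805 in each library but WT replicate 63, so the split between the models is uncertain. Gm44805 averaged 106 ± 7.30 CPM in CCR1-KO and 178 ± 50.5 CPM in WT (log2 fold change -0.75 ± 0.21, adjusted p = 0.080). The sum of both models was 14178, 11227 and 10498 reads in CCR1-KO and 32220, 28766 and 33967 reads in WT. This sum was also lower in CCR1-KO, by less than Apoc2 alone (log2 fold change -1.07 ± 0.13, adjusted p = 0.0085).

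**Figure D2:**
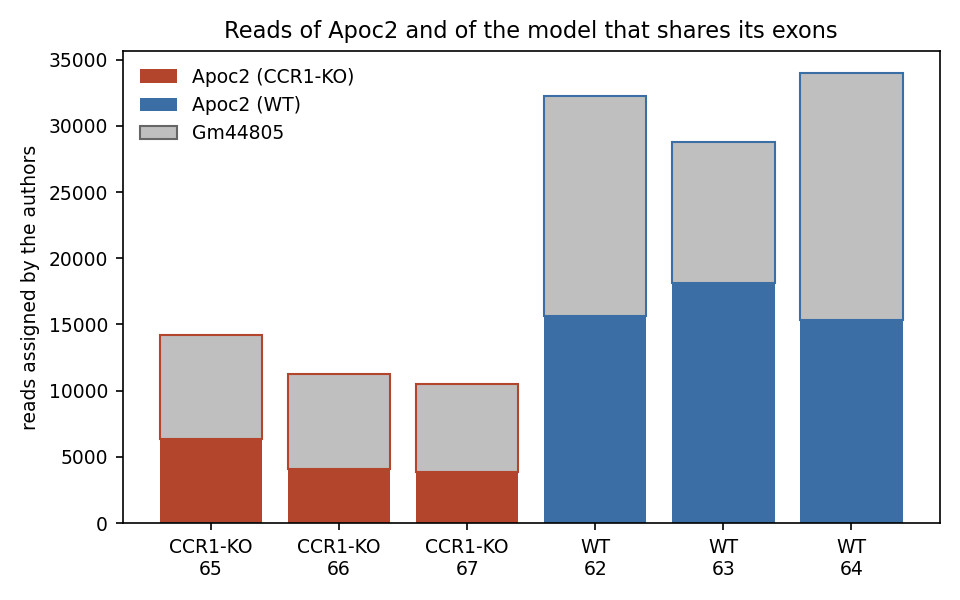
Reads assigned by the authors to Apoc2 (colored, lower part) and to Gm44805 (grey, upper part) in each library, unscaled. The stacked total is 10498 to 14178 reads in CCR1-KO and 28766 to 33967 reads in WT.

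Upstream sequence of these 2 genes is shown with that of a neighbour in the same cluster that did not pass, Apoa1 beside Apoa4 and Apoc4 beside Apoc2, because the neighbours did not pass the test where these 2 genes fell. The bases are from RefSeq promoter windows (GRCm38.p6), written 5′ to 3′ on the gene's strand and ending at the base before the annotated gene span. They are 102 bases for Apoa4 (chr9:46240594-46240695, plus), 200 for Apoa1 (chr9:46228380-46228579, plus) and 231 for Apoc4 (chr7:19681480-19681710, minus). For Apoc2 the 141 bases between the end of Apoc4 and the start of Apoc2 are shown (chr7:19677942-19678082, minus). The RefSeq starts of Apoa4, Apoa1 and Apoc4 lie inside the annotated spans, so the window bases nearest those starts are not shown. The stretch of Apoc2 reaches its RefSeq start, so the stretches do not cover like positions. Capitals mark matches to the motifs searched.
Apoa4: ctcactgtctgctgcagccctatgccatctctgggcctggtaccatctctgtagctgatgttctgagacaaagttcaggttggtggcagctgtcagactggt
Apoa1: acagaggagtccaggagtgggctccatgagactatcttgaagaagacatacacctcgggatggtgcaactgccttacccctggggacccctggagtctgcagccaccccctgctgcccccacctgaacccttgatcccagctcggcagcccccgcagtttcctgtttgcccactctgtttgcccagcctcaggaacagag
Apoc2: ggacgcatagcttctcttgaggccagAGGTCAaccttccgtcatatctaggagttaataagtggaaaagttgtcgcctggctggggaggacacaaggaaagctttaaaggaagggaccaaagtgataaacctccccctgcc
Apoc4: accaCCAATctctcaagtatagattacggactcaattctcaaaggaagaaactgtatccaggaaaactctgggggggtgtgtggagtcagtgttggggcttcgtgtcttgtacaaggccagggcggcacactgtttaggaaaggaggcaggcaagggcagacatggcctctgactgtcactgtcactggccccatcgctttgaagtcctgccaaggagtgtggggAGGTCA

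RefSeq promoter windows (250 bases before to 50 after a start) were at hand for 8 members, 12 windows in all, and both strands were searched. The nuclear receptor half-site AGGTCA was in the windows of Apoa2, Apoc2 and Apoc4 and in 16.3% of all 32851 windows, and lay 115 bases before and again 42 bases after the RefSeq start of Apoc2, and 25 before that of Apoc4. TATAAA was in windows of Apoa2, Apoa5, Apob and Apoe (13.6% of all windows), CACGTG in those of Apoa5 (7.15%), TGTTTAC in those of Apoa2 and Apoe (3.65%) and CCAAT in those of Apoa2 and Apoc4 (37.4%). No window of a member held TGACGTCA (1.79% of all windows), TGACGTG (2.01%), TTGCGCAA (0.183%), TTCNNNGAA (8.30%), or AGGTCA repeated after 1 base (0.0396%) or after 4 bases (0.0152%). The windows of Apoa4 and Apoa1 held none of these letters. The searched motifs overlap in part (AGGTCA lies within its repeats), and a match is a string of letters, not a site.

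Apob and Apoe, the structural and the receptor-binding protein of VLDL, had overlapping groups. Apob had 3725, 4561 and 4765 CPM in CCR1-KO and 4624, 4171 and 4127 CPM in WT (log2 fold change 0.014, 95% interval -0.35 to 0.38, adjusted p = 0.97). Apoe, the most abundant of the 10 by reads, had 19447, 16951 and 18540 CPM in CCR1-KO and 20889, 18677 and 17472 CPM in WT (log2 fold change -0.054, 95% interval -0.42 to 0.32, adjusted p = 0.87). These intervals still allow changes of up to 1.302-fold (Apob) or to 0.745 of WT (Apoe). The sign of both depends on the scaling of the libraries or the libraries used: Apob was at -0.30 with no scaling factors, when the median of all genes shifted to -0.30 as well. In deposited FPKM, which carry no such factors, Apob stood at 245 to 261 in CCR1-KO and 305 to 321 in WT, without overlap.

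Apoc3 and Apoa5, members that also regulate lipoprotein lipase, did not pass. Apoc3, which inhibits the lipase and the uptake of particles, had 1209, 1304 and 975 CPM in CCR1-KO and 986, 1067 and 930 CPM in WT (log2 fold change 0.23, 95% interval -0.13 to 0.59, adjusted p = 0.41). Apoa5, which promotes lipolysis, had 1150, 1372 and 1165 CPM in CCR1-KO and 1088, 1153 and 936 CPM in WT (log2 fold change 0.21, 95% interval -0.13 to 0.56, adjusted p = 0.42). For both, 1 CCR1-KO library lay within the WT range. With no scaling factors their log2 fold changes were -0.060 and -0.085.

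Apoc1, which slows the removal of particles, had 1881, 1731 and 1445 CPM in CCR1-KO replicates 65, 66 and 67, and 1030, 1345 and 1151 CPM in WT replicates 62, 63 and 64. Each CCR1-KO library was above each WT library, with a narrow gap between CCR1-KO replicate 67 and WT replicate 63. The log2 fold change was 0.52 ± 0.17 (95% interval 0.13 to 0.91), and adjusted p = 0.11 missed the threshold. DESeq2 gave 0.014 for this gene, and the adjusted p ran from 0.014 to 0.72 over the 15 alternatives. On the deposited FPKM scale (reads per length and library total, without the scaling factors) the groups of Apoc1 overlapped, at 1388 to 2438 in CCR1-KO and 1342 to 1840 in WT.

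Apoc4, a minor protein of VLDL, had 421, 465 and 433 CPM in CCR1-KO and 372, 401 and 298 CPM in WT (log2 fold change 0.30, 95% interval -0.039 to 0.64, adjusted p = 0.25). Its groups did not overlap in CPM but overlapped in FPKM. With all reads of Gm44805 added its log2 fold change was 0.028 (adjusted p = 0.91). Only 15.6% of the exon bases of Gm44805 lie in Apoc4 and 84.4% in Apoc2. Most of the added reads may thus belong to Apoc2, and this sum does not give the level of Apoc4 alone.

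Apoa1, the main protein of HDL and cofactor of the enzyme Lcat, had 6508, 7962 and 6179 CPM in CCR1-KO and 6188, 6342 and 4907 CPM in WT (log2 fold change 0.24, 95% interval -0.17 to 0.66, adjusted p = 0.44). Apoa2, the next most abundant HDL protein, had 5360, 4609 and 4692 CPM in CCR1-KO and 5680, 5216 and 3995 CPM in WT (log2 fold change -0.022, 95% interval -0.44 to 0.39, adjusted p = 0.96). The groups overlapped for both. With no scaling factors Apoa1 was at -0.051.

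**Figure D3:**
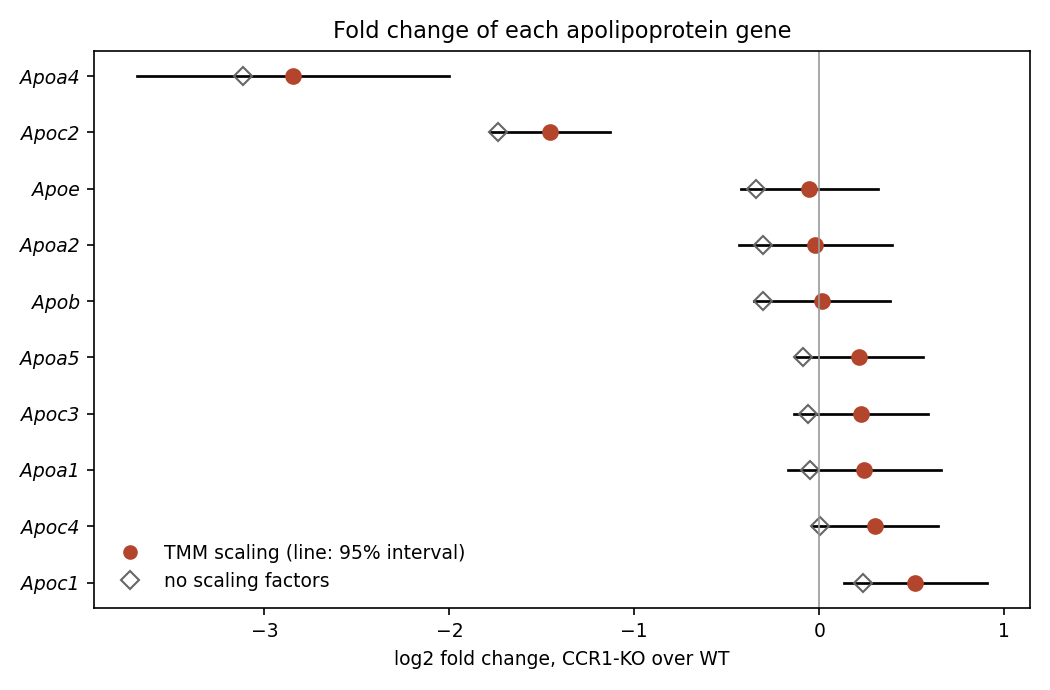
Log2 fold change of CCR1-KO over WT for each gene (filled circles, with 95% intervals as lines) and the same with no scaling factors (open diamonds). The intervals of Apoa4 and Apoc2 lie below 0 and that of Apoc1 above 0, and those of the other 7 include 0.

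The direction of Apoa1, Apoa5, Apob and Apoc3 turned with library scaling. With no scaling factors 2 of the 10 were above 0 and 8 below, against 6 above and 4 below in the main fit, while Apoa4 and Apoc2 passed in both. Of all called genes 43.9% were higher in the main fit, 20.4% with no scaling factors and 17.0% with limma on FPKM. Beside this, the major urinary protein genes (Mup) took 3.36% to 15.8% of reads in CCR1-KO and 0.927% to 1.05% in WT. Together the 10 genes took 4.30%, 3.48% and 3.00% of the reads of the CCR1-KO libraries (replicates 65, 66 and 67), against 4.78%, 4.74% and 4.50% in WT. Each CCR1-KO library was below each WT library, with a mean of 3.59% ± 0.655 in CCR1-KO and 4.67% ± 0.149 in WT. With Mup reads left out of the total the shares were 3.99% ± 0.441 in CCR1-KO and 4.72% ± 0.153 in WT, and the libraries of the groups stayed apart (3.57% to 4.45% and 4.55% to 4.83%). Without Apoa4 the other 9 genes took 2.98% to 4.23% of reads in CCR1-KO and 3.97% to 4.33% in WT, so the groups overlapped.

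Levels between genes were compared per length with the deposited FPKM. In CCR1-KO livers the order from high to low was Apoa2 (7575 ± 1804), Apoe (7100 ± 1451), Apoa1 (4598 ± 887), Apoc1 (1894 ± 526), Apoc3 (954 ± 239), Apoa5 (401 ± 61.8), Apoa4 (271 ± 137), Apob (255 ± 8.84), Apoc4 (143 ± 19.2) and Apoc2 (71.1 ± 20.5 FPKM). In WT livers it was Apoa2 (9351 ± 1254), Apoe (9019 ± 398), Apoa1 (4766 ± 504), Apoa4 (2356 ± 284), Apoc1 (1609 ± 251), Apoc3 (996 ± 66.98), Apoa5 (426 ± 36.0), Apob (314 ± 8.46), Apoc2 (237 ± 17.1) and Apoc4 (143 ± 17.9 FPKM). Apoa4 thus held rank 7 in CCR1-KO and rank 4 in WT. Neighbours in the order whose libraries overlapped were Apoa2 and Apoe in both groups, and Apoa5 and Apoa4, and Apoa4 and Apob, in CCR1-KO; the others were apart.

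**Figure D4:**
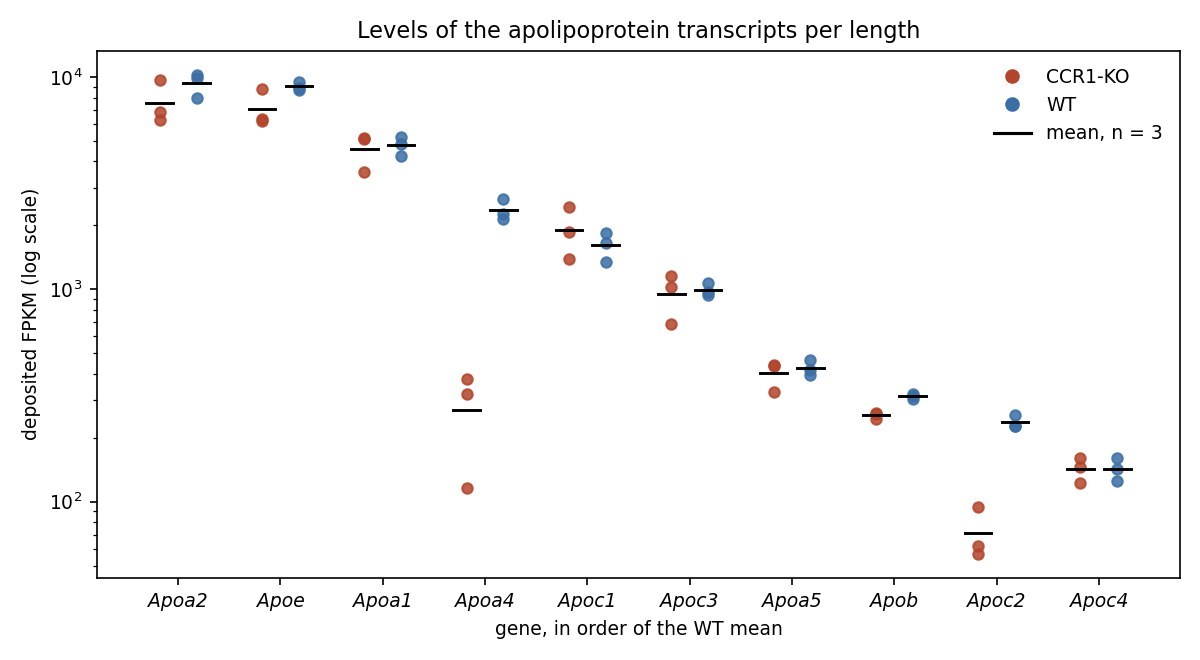
Deposited FPKM (log axis) of each gene in the 3 CCR1-KO libraries and the 3 WT libraries, ordered by the WT mean, with points for libraries and lines for means. Apoa4 averages 271 FPKM in CCR1-KO and 2356 FPKM in WT, and Apoc2 averages 71.1 and 237 FPKM in CCR1-KO and WT.

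The order depends in part on the length used. The deposited FPKM followed the length over all annotated exons of a gene, which for Apoc4 (2537 bases) is 4.72 times that of its principal transcript (538 bases), and for Apoc3, Apoe and Apoc1 1.93, 1.52 and 1.398 times. Per kilobase of the principal transcript, an alternative chosen after the data were seen, Apoe ranked above Apoa2 in both groups (11821 ± 2495 and 9066 ± 2221 in CCR1-KO, 14997 ± 598 and 11176 ± 1474 in WT, in reads per kilobase and 1e+06 reads). Apoc4 then ranked above Apoc2 in both groups as well, at 738 and 87.2 in CCR1-KO and 737 and 290.3 in WT, and Apoa4 held rank 8 in CCR1-KO and rank 4 in WT.

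Ratios within a library do not depend on how libraries are scaled, and 7 pairs were compared. Apoa4 to Apoa1 was 0.0630, 0.0733 and 0.0324 in CCR1-KO replicates 65, 66 and 67 and 0.465, 0.409 and 0.633 in WT replicates 62, 63 and 64, a 9.30-fold lower geometric mean in CCR1-KO (log2 difference -3.22). Apoc2 to Apoc3, the activator to the inhibitor of the lipase, was 0.0823, 0.0602 and 0.0826 in CCR1-KO and 0.240, 0.240 and 0.234 in WT, 3.20-fold lower in CCR1-KO. Apoc1 to Apoe was 0.278, 0.294 and 0.224 in CCR1-KO and 0.142, 0.207 and 0.189 in WT, 1.49-fold higher in CCR1-KO. Apoc4 to Apoc2 was 3.41-fold higher in CCR1-KO. The groups did not overlap in any of these 4 ratios, and each had p = 0.10 in an exact two-sided permutation test, the smallest that 3 against 3 libraries allow (adjusted p = 0.175 over the 7 pairs). Both ratios with Apoc2 rest on the uncertain split of reads with Gm44805.

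The other 3 ratios had overlapping groups. Apoa5 to Apoc3 differed by -0.0021 on the log2 scale (exact permutation p = 1.0), Apoa2 to Apoa1 by -0.25 (exact permutation p = 0.30) and Apob to Mttp by -0.058 (exact permutation p = 0.70). Mttp loads lipid onto Apob, and the last ratio was 5.51, 6.83 and 6.72 in CCR1-KO and 7.02, 6.59 and 6.17 in WT.

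**Figure D5:**
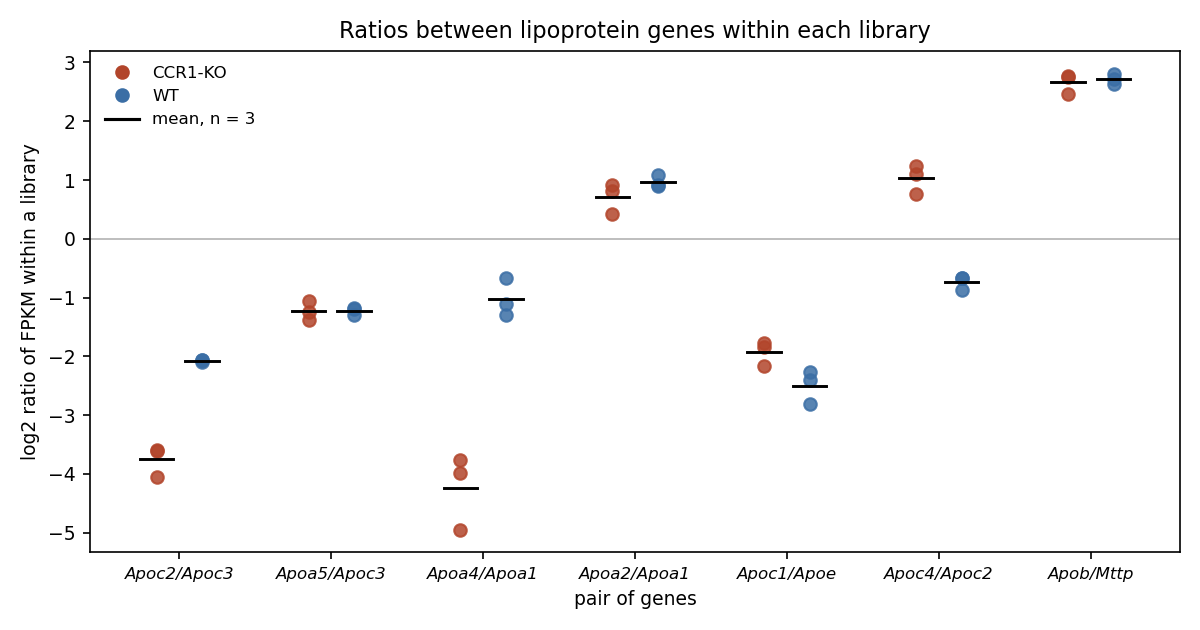
Log2 ratio of FPKM for each pair within each library, CCR1-KO left of WT, with lines at the means. The ratios Apoc2/Apoc3 and Apoa4/Apoa1 are lower and Apoc1/Apoe and Apoc4/Apoc2 higher in each CCR1-KO library than in each WT library, and the other 3 overlap.

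Markers of other cells moved between the groups beside these genes. Apoc2, Apoe, Apoc1 and Apoc4 are also made by macrophages. Of 14 markers of lipid-associated macrophages 7 fell, Lpl among them, and 0 rose (0 at unadjusted p under 0.05 in edgeR and 0 in DESeq2 or limma), with a summed level of 876 to 1158 CPM in CCR1-KO and 1534 to 1714 CPM in WT. Most of this sum was Ctsb and Ctsd, so it mainly follows these genes. Ctsb had 462 to 568 CPM in CCR1-KO and 707 to 767 CPM in WT (adjusted p = 0.060 in edgeR). Ctsd had 276 to 369 CPM in CCR1-KO and 489 to 506 CPM in WT (adjusted p = 0.039 in edgeR). Of the same 14 markers, Trem2 had 1.42 to 2.00 CPM in CCR1-KO and 2.99 to 6.56 CPM in WT, and Itgax 0.690 to 2.06 CPM in CCR1-KO and 4.73 to 7.36 CPM in WT. Of 13 Kupffer cell and general macrophage markers 0 passed in edgeR (1 lower at unadjusted p under 0.05, and 1 lower in DESeq2 and in limma), with sums of 250.3 to 581 CPM in CCR1-KO and 417 to 518 CPM in WT. Stellate cell markers were lower for 6 of 10 (219 to 255 CPM in CCR1-KO, 436 to 969 CPM in WT). Over all tested genes 3.61% fell. WT replicate 64 stood highest for collagens: Col1a1 had 27.7, 45.9 and 161 CPM and Col3a1 89.7, 111 and 313 CPM in WT replicates 62, 63 and 64. In CCR1-KO they had 12.1 to 15.0 and 12.8 to 20.9 CPM. Of the lipid-associated macrophage and stellate cell markers, only Lpl was followed in the fits without 1 library. No marker of the hepatocyte list fell in edgeR, and 3 of 12 rose, Serpina1a, Cps1 and Tat, against 2.83% of all tested genes. DESeq2 called 4 higher and limma 3, and each called 0 lower. At unadjusted p under 0.05, 5 were higher and 0 lower in edgeR, and 3 higher and 2 lower in limma. In bulk tissue fewer cells of a type and less RNA per cell cannot be told apart, and the part of these cells in the Apoc2 difference was not tested. Of 7 tested bile duct markers 1 fell, Spp1, which the macrophage list also holds (sums of 42.4 to 49.7 CPM in CCR1-KO and 119 to 191 CPM in WT). These sums were nearly all Spp1 itself, at 37.1 to 44.5 CPM in CCR1-KO and 111 to 180 CPM in WT. Krt19, Krt7, Epcam, Sox9, Cftr and Cldn7 each stayed at or below 3.7 CPM and did not pass in edgeR. Of the bile duct list 3 of 7 were lower at unadjusted p under 0.05 in edgeR. DESeq2 called 2 of 7 lower, and limma 2 of the 4 it tested. The endothelial, lymphocyte and adipocyte lists had 0 called genes in edgeR, DESeq2 and limma. At unadjusted p under 0.05 in edgeR 3 endothelial, 0 lymphocyte and 0 adipocyte markers were lower. At the same unadjusted cutoff 3 endothelial, 1 lymphocyte and 0 adipocyte markers were lower in DESeq2, and 5, 1 and 1 in limma. Endothelial markers summed to 156 to 199 CPM in CCR1-KO and 169 to 251 CPM in WT. Lymphocyte markers summed to 1.62 to 4.15 CPM in CCR1-KO and 3.32 to 6.01 CPM in WT, and adipocyte markers to 7.04 to 21.02 CPM in CCR1-KO and 14.5 to 31.04 CPM in WT. The adipocyte sums were nearly all Cfd and Adrb3, while Adipoq, Lep, Plin1 and Retn each stayed at or below 0.373 CPM.

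Of 138 tested genes in 6 lists, 5 of genes that act with the apolipoproteins and 1 of their chromosomal neighbours, 6 rose in CCR1-KO, 9 fell and 123 did not pass. Over all tested genes 2.83% rose and 3.61% fell. These counts rested on the libraries used: they were 18 higher and 16 lower without CCR1-KO replicate 65, 2 and 1 without CCR1-KO replicate 66, 3 and 4 without CCR1-KO replicate 67, 2 and 1 without WT replicate 62, 0 and 1 without WT replicate 63 and 0 and 2 without WT replicate 64. Of 26 tested genes of VLDL assembly and secretion 1 fell, Acat2 (62.04 ± 5.68 CPM in CCR1-KO, 109 ± 9.85 CPM in WT, log2 fold change -0.81, adjusted p = 0.017), and 0 rose (5 at unadjusted p under 0.05 in edgeR, 2 in DESeq2, 0 in limma). Acat2 passed in 2 of the 6 fits without 1 library. It is known as a cytosolic thiolase of sterol synthesis, not as a part of VLDL assembly, and the enzyme that esterifies cholesterol for VLDL is Soat2. The list's median log2 fold change was 0.11. Creb3l3, a transcription factor known to act on Apoa4 and Apoc2 in mouse liver, had 413 ± 48.5 CPM in CCR1-KO and 276 ± 23.9 CPM in WT, just outside the threshold (log2 fold change 0.58 ± 0.14, adjusted p = 0.051). Ces3a (2499 ± 613 CPM in CCR1-KO, 1460 ± 102 CPM in WT, adjusted p = 0.059) and Soat2 (27.3 ± 5.00 CPM in CCR1-KO, 39.4 ± 3.90 CPM in WT, adjusted p = 0.089) did not pass.

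Of 18 tested genes of plasma lipases and lipid transfer 2 rose and 2 fell, with a median of 0.0055. Angptl4, an inhibitor of lipoprotein lipase, rose (325 ± 50.7 CPM in CCR1-KO, 152 ± 10.9 CPM in WT, adjusted p = 0.012), as did the sterol exporter Abcg8 (114 ± 20.9 CPM in CCR1-KO, 65.6 ± 5.08 CPM in WT, adjusted p = 0.028). The phospholipid transfer protein Pltp fell (20.2 ± 9.12 CPM in CCR1-KO, 89.8 ± 20.7 CPM in WT, log2 fold change -2.15, adjusted p = 0.015). The lipase Lpl itself fell (23.6 ± 6.22 CPM in CCR1-KO, 43.9 ± 3.15 CPM in WT, adjusted p = 0.034). In the fits without 1 library, Angptl4 and Pltp passed in 3 of 6 and Abcg8 and Lpl in 1 of 6.

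Of 19 tested receptors and clearance genes 2 fell and 0 rose in edgeR, with a median of -0.27. At unadjusted p under 0.05 in edgeR 8 were lower and 1 higher. DESeq2 called 5 of 19 lower and limma 5 of the 18 it tested, and both called 0 higher. The fatty acid transporter Cd36 fell (43.3 ± 41.1 CPM in CCR1-KO, 273 ± 32.5 CPM in WT, adjusted p = 0.045) and so did the sorting receptor Sorl1 (1.81 ± 0.227 CPM in CCR1-KO, 4.14 ± 1.05 CPM in WT, adjusted p = 0.038). Each passed in 1 of the 6 fits without 1 library.

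Of 37 tested regulators known to act on apolipoprotein genes 3 rose and 3 fell, with a median of 0.20. The genes of smallest p were Pparg, which fell (6.65 ± 0.859 CPM in CCR1-KO, 21.5 ± 2.31 CPM in WT, adjusted p = 0.0034), Foxo1, which rose (58.5 ± 8.80 CPM in CCR1-KO, 28.3 ± 1.97 CPM in WT, adjusted p = 0.011), Mlxipl, which rose (419 ± 5.26 CPM in CCR1-KO, 220.1 ± 38.2 CPM in WT, adjusted p = 0.018), and Srebf2, which fell (34.7 ± 2.91 CPM in CCR1-KO, 57.6 ± 7.77 CPM in WT, adjusted p = 0.025). Pparg passed in all 6 fits without 1 library, Foxo1 in 4, Mlxipl in 3 and Srebf2 in 1.

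Of 14 tested apolipoprotein genes outside the 10, 0 passed in edgeR in either direction (3 higher at unadjusted p under 0.05, 3 higher in DESeq2, 0 in limma), with a median of 0.23. Saa4 (424 ± 113 CPM in CCR1-KO, 242 ± 64.8 CPM in WT, adjusted p = 0.11), Apom (130.5 ± 30.2 CPM in CCR1-KO, 83.3 ± 16.7 CPM in WT, adjusted p = 0.12), Apoh (2145 ± 100.1 CPM in CCR1-KO, 1657 ± 168 CPM in WT, adjusted p = 0.16) and Clu (1797 ± 242 CPM in CCR1-KO, 1401 ± 134 CPM in WT, adjusted p = 0.22) had the smallest p. Of 25 tested neighbours of the members on their chromosomes 1 rose, Zpr1 next to Apoa5 (69.2 ± 20.97 CPM in CCR1-KO, 33.5 ± 3.71 CPM in WT, adjusted p = 0.040), and 1 fell, Hs1bp3 (10.01 ± 1.91 CPM in CCR1-KO, 16.2 ± 0.742 CPM in WT, adjusted p = 0.046), with a median of 0.15. Each passed in 1 of the 6 fits without 1 library. Fcer1g (5.06 ± 1.89 CPM in CCR1-KO, 10.1 ± 2.09 CPM in WT, adjusted p = 0.089) and Ldah (47.4 ± 3.92 CPM in CCR1-KO, 37.3 ± 2.22 CPM in WT, adjusted p = 0.11) did not pass.

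The genes whose profiles over the 6 libraries were most like those of the 2 lower members were found by the root-mean-square difference of mean-centred log2 CPM. For Apoc2 these were the fatty acid elongase Elovl5 (0.10), Tenm3 (0.12) and Entpd2 (0.13), against a median of 0.82 over all tested genes. For Apoa4 they were Mtmr11 (0.24), Edn1 (0.33) and Nbdy (0.34), against a median of 1.60. Because likeness counts the group difference as well as the spread within groups, each of the 6 genes was itself lower in CCR1-KO, with log2 fold changes between -2.92 (Mtmr11) and -1.34 (Elovl5) and adjusted p from 0.0049 (Tenm3) to 0.040 (Edn1) in edgeR. Tenm3 passed in all 6 fits without 1 library, and Mtmr11, Nbdy, Elovl5 and Entpd2 in 5. Edn1, at 0.14 CPM in CCR1-KO and 0.75 CPM in WT, passed in 1.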

How the data were processed

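Liver RNA was sequenced as polyadenylated, dUTP-marked, paired libraries, per the labels' protocols. The submitters' processing notes name DESeq2, edgeR, StringTie 2.1.6, HISAT2 2.2.1 and cutadapt 1.9 without roles and list GRCh38, whereas the identifiers are of mouse and the 10 members have the GENCODE M21 (GRCm38) spans. The deposited table holds a raw read count per gene and library, and an FPKM value computed by the authors, per the file headers. The FPKM followed the counts by 1 factor per library (3308 genes with at least 2000 reads, SD of the log2 ratio at most 0.00095). No source used here states how strand and shared reads were counted. Columns of other samples used: 0.

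Counts were tested with edgeR 4.0.16 in R 4.3.3 (filterByExpr, minimum count 10 and total 15, TMM factors 0.779 to 1.17, glmQLFit and glmQLFTest, Benjamini-Hochberg over 17729 genes). Standard errors were the size of the fold change on the log2 scale divided by the root of F. DESeq2 1.42.0 and limma 3.58.1 on log2(FPKM + 0.5), keeping genes that reached 0.5 FPKM in 3 libraries, were alternatives, with other scalings, filters, pseudocounts and libraries left out. The tests were also run on counts simulated with the spread that edgeR estimated from these data. That run, whose outcome is not given here, cannot show how the tests hold in these libraries. Replicate pairs differed by more than sampling noise (chi-square per degree of freedom at least 75.2). Members and lists were chosen with earlier results of these data known. Of each list up to 4 genes of smallest p were named, all called genes where 5 or fewer passed, and for each called member the 3 most alike genes (predicted models left out). Of the genes this rule picks, 2 are not reported here. Marker genes, Mttp and Ccr1 were named beside them, some after their values were seen.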

Additional observations from a re-analysis of the deposited data

How the results depend on the processing

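Apoa4 and Apoc2 kept direction and call under the 16 settings tried for each (log2 fold changes -3.28 to -2.53 and -1.77 to -1.07); 2 members were lower in each setting, and DESeq2 called 1 higher where the others called 0. No paired analysis was possible because the groups share no replicate numbers. Of the 8 members that did not pass, Apoc1 kept its sign throughout (0.21 to 0.63) and the other 7 changed sign in at least 1 setting. With no scaling factors the values were Apoa1 -0.051, Apoa5 -0.085, Apob -0.302 and Apoc3 -0.060, as the median of all genes moved to -0.30. With limma at a pseudocount of 0.5, with or without the filter, Apoa1 was -0.066, Apoa5 -0.095, Apob -0.302, Apoc3 -0.093 and Apoc4 -0.00048, and at 0.1 they were -0.066, -0.095, -0.302, -0.093 and -0.00049. Apob was -0.00086 with no filter on low counts. With 1 library left out Apoa2 ran from -0.16 to 0.088, Apob from -0.062 to 0.11 and Apoe from -0.11 to 0.021. The reversed values were, for Apoa2, 0.018 and 0.0021 without CCR1-KO replicates 66 and 67 and 0.088 and 0.014 without WT replicates 62 and 63. For Apob they were -0.021 and -0.062 without CCR1-KO replicates 66 and 67 and -0.0089 and -0.017 without WT replicates 63 and 64, and for Apoe 0.021 without WT replicate 62. The log2 ratio Apoa5 to Apoc3 differed between groups by -0.087 to 0.077 and Apob to Mttp by -0.11 to 0.041 with 1 library left out. By principal transcript length the log2 ratio Apoe to Apoa2 was 0.39 in CCR1-KO and 0.43 in WT.

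All called genes numbered 1141, against 735 without the filter, 2548 with DESeq2, 239 with limma without the filter and 102 to 2419 with 1 library left out. Pathway genes higher, 6, became 2 with no scaling factors and with limma at either pseudocount, 0 with limma without the filter, 17 with DESeq2 and 0 to 18 with 1 library left out. Those lower, 9, became 5 without the filter on counts, 18 with DESeq2, 14 with limma at 0.5, 1 without its filter and 1 to 16 with 1 library left out. The summed share differed by -1.08 percentage points, and by -1.94 as a share of FPKM. Of 446 values of 30 other genes picked by the naming rule, 332 kept their call, 88 lost it, 26 gained one and 0 changed sign. The causes were not tested. For the 10 members, each at 3860 reads or more per library, counting error was small beside the spread between 3 libraries. The same cannot be said of genes of few reads, such as Ccr1 (4 to 14 reads in CCR1-KO) and Edn1.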
